A study of Homo sapiens with 8 samples.

Results

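*ERF* and *CIC* lie next to each other on chromosome 19, and the genes described here are their neighbours: the protein-coding genes of GENCODE release 29 (GRCh38) that start between 41.5 and 44.0 Mb of that chromosome, without *ERF* and *CIC* themselves. There were 66 such genes, of which 65 had counts, among 33791 genes with counts in all. After the filter on low counts 44 of the 66 were tested, among 14653 genes tested. The other 22 were either not listed (*AC010616.2*) or had at most 1.9 CPM in any library (counts scaled to library size by TMM).

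RNA was sequenced from PNT2, an established prostate epithelial line of human origin that was immortalized in culture. Each of 4 groups had 2 libraries, called replicates A and B. The groups were parental cells (WT), cells labelled *ERF* KD (short hairpin RNA against *ERF*, puromycin selection), cells labelled *CIC* KO (guide RNA and Cas9 against *CIC*, blasticidin selection) and cells labelled *CIC-ERF* codeletion (hairpin and guide in the same cells). A hairpin acts on the transcript and leaves the gene in place, whereas Cas9 cuts the gene itself. The sources used here do not state whether a library came from a pool or a single clone, or which hairpin or guide it carried, and DNA copy number was not measured in these files, so that changes in RNA alone are described. With nothing that says replicates A and B came from separate cultures, p-values measure only the spread between these libraries.

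*CIC* and *ERF* are transcriptional repressors downstream of receptor tyrosine kinase signalling: *CIC* is an HMG-box protein and *ERF* an ETS-family protein that represses ETS targets. This stretch of chromosome 19 is rich in gene families that arose by tandem duplication, among them the *CEACAM* cell adhesion genes, the *PSG* pregnancy-specific glycoproteins of the placenta, the C2H2 zinc-finger transcription factors and genes of the Ly6/uPAR surface protein family. Between them sit housekeeping genes that most cells use. A loss of chromosomal material lowers the RNA of many adjacent genes together, while a change in cis would be looked for in the nearest ones.

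Library totals ran from 19477473 to 25813157 estimated counts, 93.2% to 93.3% of which were on genes of the annotation. *ERF* itself had 55.8 and 55.9 CPM in WT replicates A and B, 81.2 and 77.8 in the libraries labelled *ERF* KD, 18.8 and 11.7 in those labelled *CIC* KO and 11.6 and 10.4 in the codeletion. *ERF* mRNA was therefore low under the *CIC* KO label and not under the *ERF* KD label, and since the deposited files of these 4 libraries also carry the opposite letters, groups are called by their labels throughout and a direction drawn from either single-loss label rests on that label. Of the epithelial markers (*KRT5*, *KRT8*, *KRT18*, *EPCAM*, *CDH1*, *ITGB4*) all 6 were expressed, with a summed level of 3350 to 3970 CPM in WT, 3530 to 4550 in labelled *CIC* KO and 3530 to 4430 in the codeletion, but 1500 to 1670 in labelled *ERF* KD. The sum of the mesenchymal markers *VIM*, *ZEB1*, *COL1A1* and *PDGFRB* was 1640 to 2040 CPM in labelled *ERF* KD against 97.1 to 248 in the other 6 libraries. Most of it was *VIM*, at a mean of 1720 CPM in labelled *ERF* KD against 158 in WT (edgeR adjusted p = 0.00835). *ZEB1* was also called (45.0 against 6.56 CPM, edgeR adjusted p = 0.000131). *COL1A1* and *PDGFRB* were not (edgeR adjusted p = 0.436 and 0.267). Of the prostate luminal markers, *KLK3* was at 0 counts in all 8 libraries.

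*ERF* occupies positions 42247572 to 42255157 on the minus strand and *CIC* 42268537 to 42295797 on the plus strand, so that their 5′ ends face each other across 13.4 kb. Distances below are from the gene body to this 48.2 kb interval. The window reached 748 kb beyond it on the *ERF* side, where 22 members lie, and 1704 kb on the *CIC* side, where 43 lie, and *AC006486.1*, a readthrough model over *GSK3A* and *ERF*, overlapped the interval.

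The promoters of the genes on which the results turn are shown from the RefSeq table of GRCh38.p14, from 250 bases before to 50 bases after the gene start, 5′ to 3′ on the strand of the gene. That table matched 48 of the 66 members. The immediate neighbours were *GSK3A* on the *ERF* side (chr19:42242553-42242852, minus strand) and *PAFAH1B3* on the *CIC* side (chr19:42302751-42303050, minus strand), shown because they are the genes in which a local effect would be looked for. *POU2F2* (chr19:42132397-42132696, minus strand) is shown because it was the member nearest to the locus with the ETS octamer CCGGAAGT, here read on the opposite strand, and the capitals mark it. *CEACAM1* (chr19:42528432-42528731, minus strand) and *LYPD3* (chr19:43465559-43465858, minus strand) were the members that passed the test.
GSK3A: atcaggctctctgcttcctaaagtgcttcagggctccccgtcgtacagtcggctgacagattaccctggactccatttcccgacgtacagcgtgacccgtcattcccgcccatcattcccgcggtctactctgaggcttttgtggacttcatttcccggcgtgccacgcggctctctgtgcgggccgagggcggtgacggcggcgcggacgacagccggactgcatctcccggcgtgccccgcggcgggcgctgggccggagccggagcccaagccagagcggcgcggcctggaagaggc
PAFAH1B3: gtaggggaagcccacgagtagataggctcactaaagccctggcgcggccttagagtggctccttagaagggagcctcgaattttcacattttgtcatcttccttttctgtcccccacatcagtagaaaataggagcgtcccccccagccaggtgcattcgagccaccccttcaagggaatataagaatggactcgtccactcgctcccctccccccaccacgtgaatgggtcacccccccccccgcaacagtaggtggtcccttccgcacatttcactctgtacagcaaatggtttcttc
POU2F2: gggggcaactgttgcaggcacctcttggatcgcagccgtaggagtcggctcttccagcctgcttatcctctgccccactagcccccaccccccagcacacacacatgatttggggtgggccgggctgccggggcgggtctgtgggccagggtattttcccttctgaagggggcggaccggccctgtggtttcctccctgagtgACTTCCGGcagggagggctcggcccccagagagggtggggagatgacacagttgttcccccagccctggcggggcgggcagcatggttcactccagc
CEACAM1: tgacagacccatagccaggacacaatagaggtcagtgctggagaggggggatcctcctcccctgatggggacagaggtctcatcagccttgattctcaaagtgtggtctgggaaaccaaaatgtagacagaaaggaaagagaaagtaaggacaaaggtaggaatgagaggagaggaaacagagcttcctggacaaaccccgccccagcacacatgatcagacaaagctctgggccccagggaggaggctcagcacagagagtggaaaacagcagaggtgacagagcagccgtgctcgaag
LYPD3: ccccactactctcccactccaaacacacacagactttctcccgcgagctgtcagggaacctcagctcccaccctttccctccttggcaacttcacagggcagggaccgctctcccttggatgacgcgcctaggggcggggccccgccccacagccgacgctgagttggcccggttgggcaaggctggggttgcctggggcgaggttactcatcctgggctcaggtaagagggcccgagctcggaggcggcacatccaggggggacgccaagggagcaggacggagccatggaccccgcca

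The CIC octamers TGAATGAA, TGAATAAA, TCAATGAA, TCAATAAA and TGAATGGA and the ETS octamer CCGGAAGT were searched on both strands of these 300 bases. Any of the 5 CIC octamers was found in 1 of 48 member promoters (2.08%), that of *CEACAM5*, against 5.42% of all 35116 promoters. The ETS octamer was found in 3 of 48 (6.25%), those of *POU2F2*, *PHLDB3* and *ZNF283*, against 4.14% of all promoters. None of the promoters of *GSK3A*, *PAFAH1B3*, *CEACAM1* and *LYPD3* held any of these letters in this window.

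The genes next to *ERF* and *CIC* kept levels close to WT. *GSK3A*, a serine/threonine kinase of glycogen and Wnt signalling that starts 4.9 kb from the end of *ERF*, had 87.0 and 97.4 CPM in WT replicates A and B, 100 and 98.8 in labelled *ERF* KD, 82.3 and 99.9 in labelled *CIC* KO and 87.5 and 80.0 in the codeletion. The libraries of the codeletion and of labelled *CIC* KO overlapped those of WT, and those of labelled *ERF* KD lay just above. The log2 fold change of *GSK3A* against WT was 0.11 in labelled *ERF* KD (SE 0.139), -0.02 in labelled *CIC* KO (SE 0.139) and -0.14 in the codeletion (SE 0.139, 95% interval -0.46 to 0.18). None passed the quasi-likelihood test of edgeR, and the Benjamini-Hochberg adjusted p in the codeletion was 0.694.

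*PAFAH1B3*, a catalytic subunit of a platelet-activating factor acetylhydrolase, ends 1.2 kb from *CIC*. It had 65.8 and 75.3 CPM in WT, 95.3 and 73.6 in labelled *ERF* KD, 60.0 and 73.9 in labelled *CIC* KO and 62.7 and 69.1 in the codeletion, and each group overlapped WT. Its log2 fold change in the codeletion was -0.10 (SE 0.172, 95% interval -0.49 to 0.30, edgeR adjusted p = 0.839). For both flanking genes the 95% interval in the codeletion lay above -1, the value that 1 of 2 equal copies would give. In the same libraries *ERF* fell by 2.34 on the log2 scale (SE 0.216, edgeR adjusted p = 0.0157). How many copies of this stretch the cells carry was not measured, and loss of a copy was not tested.

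*CIC* itself had 128 and 129 CPM in WT, 109 in both labelled *ERF* KD libraries, 132 and 131 in labelled *CIC* KO, and 90.9 and 66.4 in the codeletion. The codeletion libraries lay below those of WT, at a log2 fold change of -0.71 (SE 0.156, edgeR adjusted p = 0.122, or 0.0399 when the fit held the letter as a block). *ERF* in labelled *CIC* KO had a log2 fold change of -1.87 (SE 0.211, edgeR adjusted p = 0.248, or 0.0477 with the block).

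The next genes outward were *ZNF526* and the death-effector protein gene *DEDD2* on the *ERF* side, at 19.4 and 27.4 kb. *ZNF526* had 21.0 and 23.2 CPM in WT and 21.4 and 21.5 in the codeletion, a log2 fold change of -0.04 (SE 0.147). *DEDD2* had 29.7 and 37.2 CPM in WT and 27.9 and 29.9 in the codeletion, a log2 fold change of -0.21 (SE 0.167). Both genes overlapped WT there. Their promoter windows also overlap each other (chr19:42220062-42220361 and chr19:42220085-42220384), on opposite strands. *POU2F2*, a POU-domain factor best known from B cells that lies 51.0 kb away, was low, with 2.9 and 2.4 CPM in WT and 2.46 and 1.58 in the codeletion (log2 fold change -0.38, SE 0.429).

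On the *CIC* side *PRR19*, which shares 272 exonic bases with *PAFAH1B3* on the opposite strand, had 3.32 and 3.98 CPM in WT and 3.17 and 1.69 in the codeletion, a log2 fold change of -0.57 (SE 0.375). *TMEM145* had 3.66 and 4.84 CPM in WT and 5.38 and 4.68 in the codeletion, which overlapped. In labelled *ERF* KD *TMEM145* had 8.07 and 6.56 CPM, both above WT, with a log2 fold change of 0.78 (SE 0.284, edgeR adjusted p = 0.13).

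Of the 10 tested members within 100 kb, 0 passed in any of the 3 comparisons without the block.

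**Figure D1:**
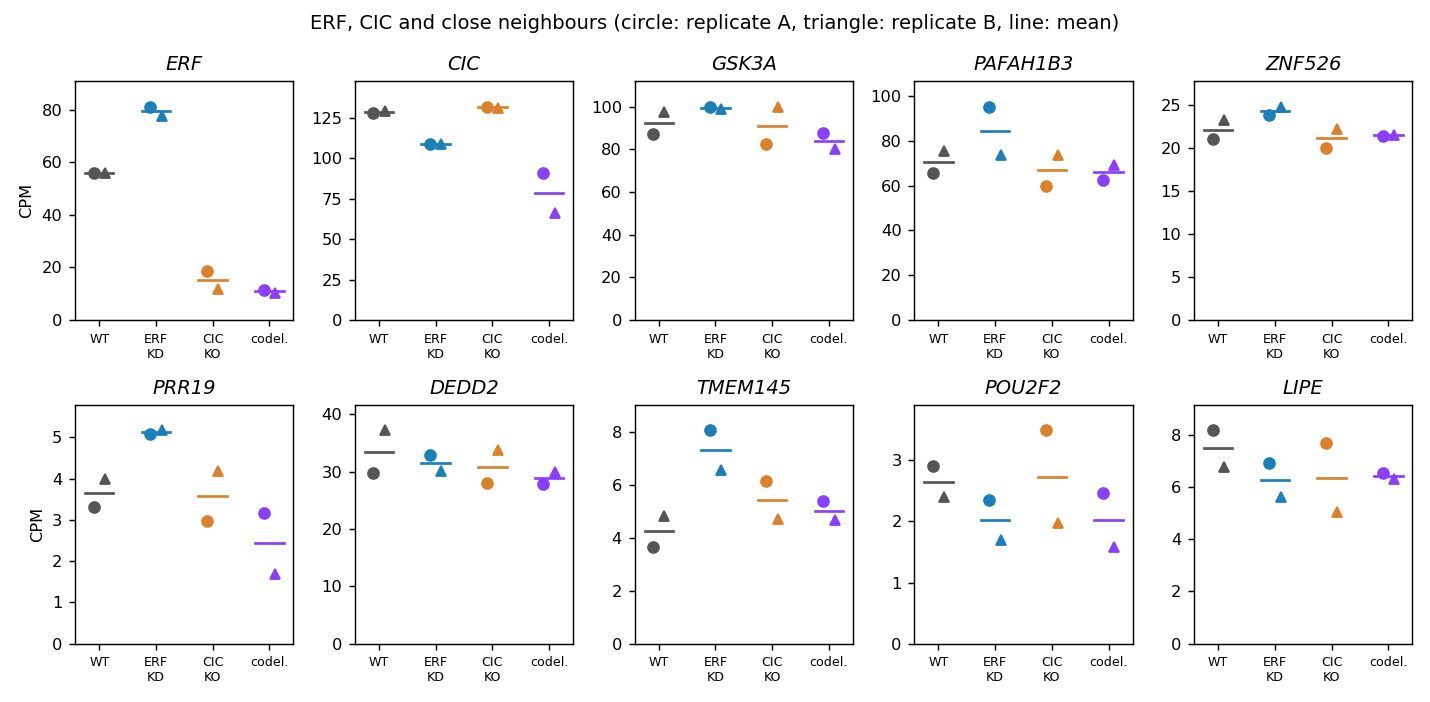
CPM (vertical axis, from 0) of *ERF*, *CIC* and 8 close neighbours in the 4 groups, with replicate A as a circle, replicate B as a triangle and the mean of 2 libraries as a line. *ERF* was 11.6 and 10.4 CPM in the codeletion against 55.8 and 55.9 in WT, while *GSK3A* was 87.5 and 80.0 against 87.0 and 97.4 and *PAFAH1B3* was 62.7 and 69.1 against 65.8 and 75.3.

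Across the window, levels were next compared with distance. The 3 comparisons share the WT libraries, so they are given side by side. In labelled *ERF* KD 2 of 44 members (4.55%) were called at an adjusted p under 0.05, both lower, against 10.1% of all genes tested. In labelled *CIC* KO 0 were called, against 0.0% of all genes. There 0 of 44 members had an unadjusted p under 0.05, against 587 of the 14653 genes tested. In the codeletion 0 members were called, against 0.0682% of all genes. There 3 of 44 had an unadjusted p under 0.05 (*LYPD3*, *ETHE1* and *KCNN4*), against 1950 of the 14653 genes tested, so these 3 are no excess. DESeq2 also called 2, 0 and 0 members, against 14.1%, 0.177% and 3.0% of all genes. In the blocked fit 6, 0 and 0 members were called, against 18.2%, 0.00682% and 2.49% of all genes.

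The median log2 fold change of the 44 members was 0.14 in labelled *ERF* KD, 0.07 in labelled *CIC* KO and -0.12 in the codeletion, against 0.01, 0.02 and 0.01 for the 13832 protein-coding genes tested. By distance, the codeletion median was -0.12 for the 10 members within 100 kb, -0.22 for the 3 from 100 to 250 kb, 0.15 for the 6 from 250 to 500 kb, 1.87 for the 5 from 500 to 1000 kb (all of them *PSG* genes) and -0.21 for the 20 beyond 1000 kb. In labelled *ERF* KD these medians were 0.13, -0.25, 0.16, 2.06 and 0.10, and in labelled *CIC* KO -0.02, -0.07, 0.13, 0.94 and 0.04. In each line the median of the nearest bin was within 0.1 of that of the farthest one, and the bin from 500 to 1000 kb had the highest. Single libraries were also set against the mean of both WT libraries, on log2 of CPM plus 0.5. The codeletion value of that bin rested mostly on replicate A, with medians of 2.21 for the A library and -0.26 for the B library. In labelled *ERF* KD and labelled *CIC* KO they were 1.53 and 0.30 and 1.02 and -0.21. The 10 *PSG* genes together had 15.4 CPM in WT replicate A and 6.22 in WT replicate B. A value below 0 in a B library is therefore not by itself a fall from WT replicate B, and their sum in codeletion replicate B was 8.01 CPM. Spearman's rho of the log2 fold change with distance, over 44 members that share the same libraries, was 0.0316 in labelled *ERF* KD, -0.0317 in labelled *CIC* KO and -0.15 in the codeletion.

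**Figure D2:**
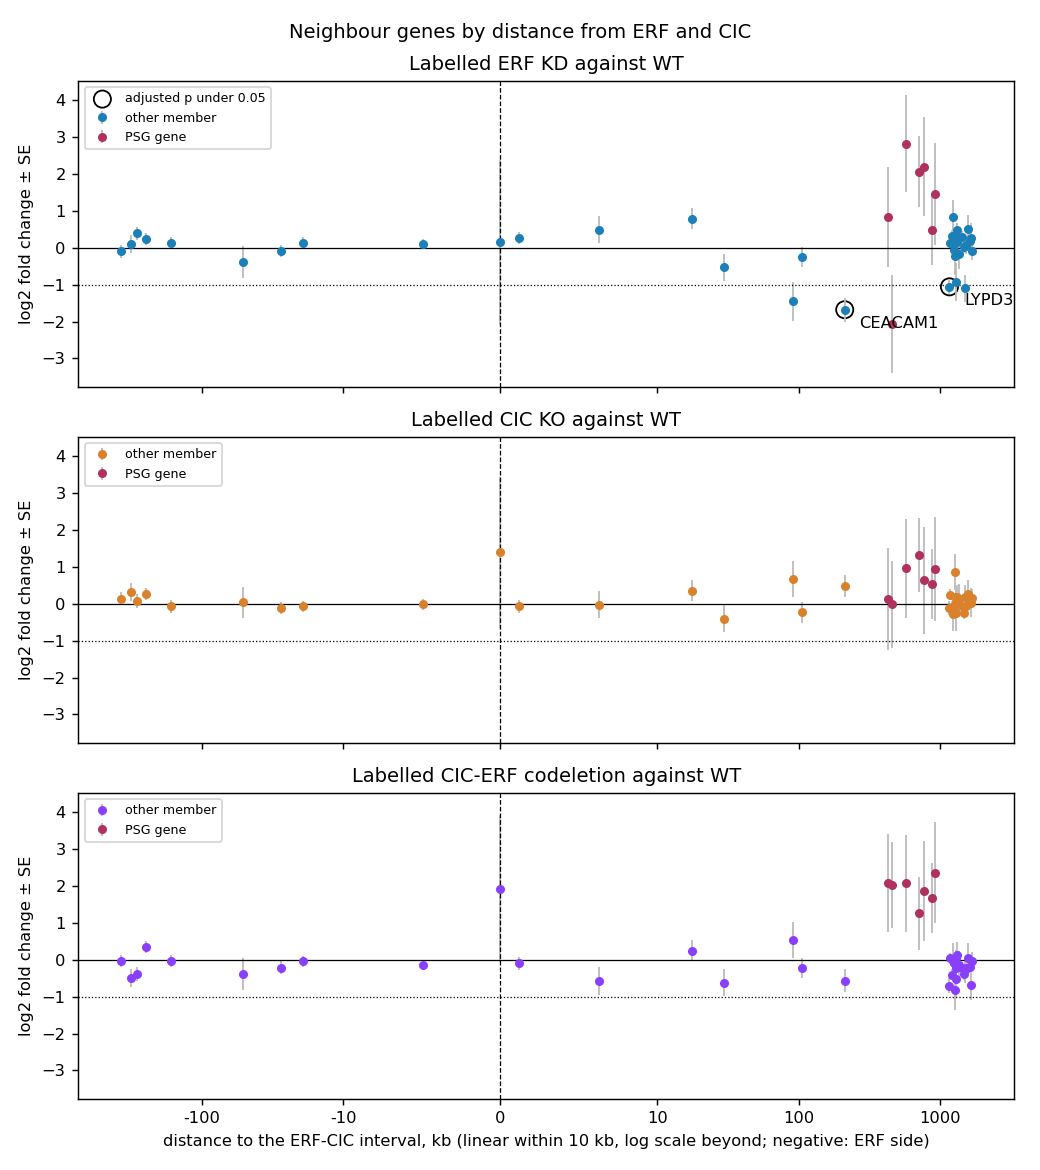
Log2 fold change against WT with its SE (vertical axis) of the 44 tested members by distance from the *ERF*-*CIC* interval in kb (horizontal axis, linear within 10 kb and logarithmic beyond), 1 panel for each line. The dotted line is at -1, circles mark the called genes *CEACAM1* and *LYPD3*, and *PSG* genes are in red. Points near 0 kb lie around 0 except the low-count readthrough model *AC006486.1*, and the *PSG* genes stand high in the codeletion. There the 5 of them from 500 to 1000 kb had medians of 2.21 in replicate A and -0.26 in B, each against the mean of both WT libraries.

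Among the 27 members with a mean of at least 5 CPM, where the median SE was 0.175 to 0.176, the 95% interval lay above -1 for 22 in labelled *ERF* KD, 25 in labelled *CIC* KO and 22 in the codeletion. Their log2 fold changes ran from -1.68 to 0.78, from -0.41 to 0.54 and from -0.70 to 1.68. A fall by 1 on the log2 scale over the whole window was thus not seen in any line, while shifts within about 0.5 could not be resolved gene by gene.

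The codeletion had a small shift to lower values. Of the 44 members 29 (65.9%) were below 0, against 49.8% of all genes tested, and of the 37 that are not *PSG* genes 29 were (78.4%). The median of these 37 was -0.20. It was -0.20 and -0.19 in the separate A and B libraries, both set against the same mean of the 2 WT libraries. Medians of the 44 members within each letter are given in the last section. Both codeletion libraries were below both WT libraries for 18 of 44 members (40.9%), against 25.1% of all genes tested, and above them for 2 (4.55%), against 24.4%. In the adjoining windows of 2.5 Mb, the median was -0.07 on the centromeric side (51 genes, 58.8% below 0) and -0.17 on the telomeric side (64 genes, 76.6% below 0), and it was -0.05 for the 1015 other protein-coding genes of chromosome 19 (54.3% below 0). Lower values were thus about as common in the telomeric window as among the members without the *PSG* genes. Lower values lay on both sides of the locus. The median was -0.14 for the 9 members on the *ERF* side (88.9% below 0) and -0.12 for the 34 on the *CIC* side (61.8% below 0). Those 34 include the 7 tested *PSG* genes, whose median was 2.02, so the 2 sides are not like sets.

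In labelled *ERF* KD the median had the opposite sign, at 0.14, against 0.05 for the other protein-coding genes of chromosome 19. There 28 of 44 members were above 0, against 7420 of the 14653 genes tested. Of the 44, 15 (34.1%) did not overlap WT from above, against 28.3% of all genes, and 7 (15.9%) from below, against 28.0%. The windows on either side had medians of 0.04 and 0.02. In labelled *CIC* KO 6 members (13.6%) lay above both WT libraries, against 16.1% of all genes, and 3 (6.82%) below, against 16.1%. The medians of the windows on either side were 0.04 and 0.02.

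**Figure D3:**
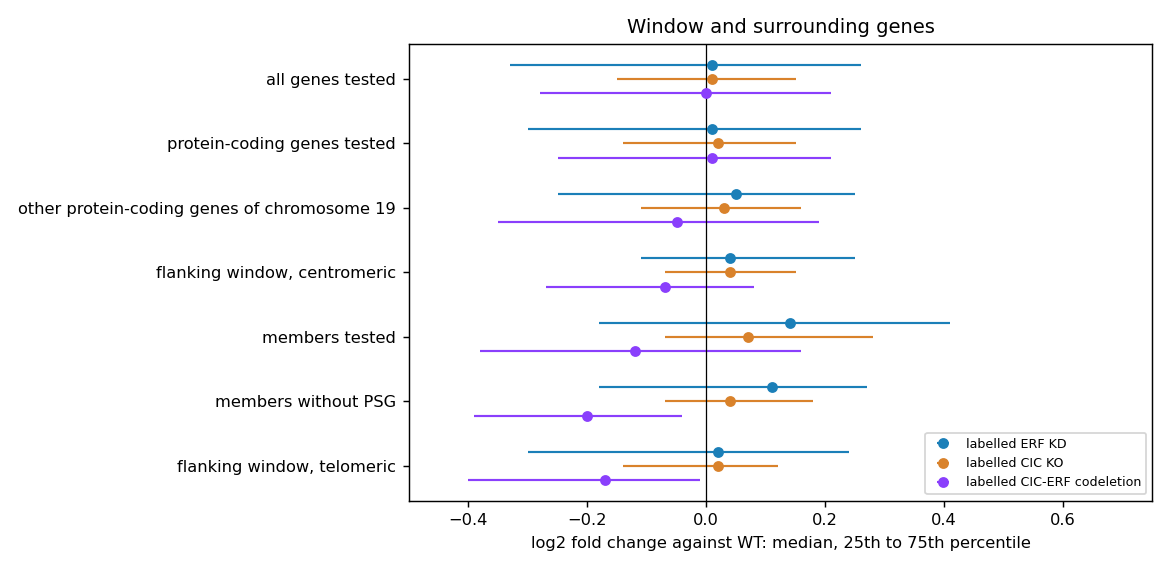
Median log2 fold change against WT (points) with the 25th to 75th percentile of genes (bars) in each line, for all genes tested, protein-coding genes, the rest of chromosome 19, the members and the windows of 2.5 Mb on either side. In the codeletion the members without *PSG* genes (-0.20) and the telomeric window (-0.17) lie lowest, and all medians are within 0.2 of 0.

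The housekeeping members followed the same small shift. *RPS19*, a protein of the small ribosomal subunit 374.6 kb from the locus, was the most abundant member, at 1220 ± 112 TPM in WT (a level per transcript length, SD, n = 2). It had 249 and 304 CPM in WT, 236 and 300 in the codeletion, 255 and 262 in labelled *ERF* KD and 284 and 326 in labelled *CIC* KO, with overlap throughout. All 10 housekeeping members (*RPS19*, *XRCC1*, *ETHE1*, *SMG9*, *GSK3A*, *RABAC1*, *PAFAH1B3*, *ARHGEF1*, *DEDD2* and *IRGQ*) were tested, and 0 of 10 were called in any comparison. In the codeletion 10 of 10 were below 0, with a median of -0.22 and a range from -0.50 (*ARHGEF1*) to -0.04 (*RPS19*), and in labelled *ERF* KD 4 of 10 were, with a median of 0.10.

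*ETHE1*, a mitochondrial sulfur dioxygenase 1210.9 kb away, had 29.5 and 30.0 CPM in WT, 36.4 and 38.1 in labelled *ERF* KD, 31.7 and 24.4 in labelled *CIC* KO and 23.0 and 22 in the codeletion. The codeletion libraries were below WT and the labelled *ERF* KD libraries above. Neither difference from WT was called (log2 fold change -0.40, SE 0.159, and 0.33, SE 0.158), but the difference between the codeletion and labelled *ERF* KD was, at -0.72 (SE 0.159, edgeR adjusted p = 0.0231). *RABAC1*, which codes for a prenylated Rab acceptor of vesicle traffic, had 49.1 and 60.5 CPM in WT, 78.7 and 64.6 in labelled *ERF* KD and 36.1 and 47.8 in the codeletion. Its difference between these lines was -0.77 (SE 0.185, edgeR adjusted p = 0.0325). *CNFN* differed the other way, at 1.98 (SE 0.531, edgeR adjusted p = 0.0476). *ETHE1*, *RABAC1* and *CNFN* were the 3 of 44 members (6.82%) called in that comparison, against 11.7% of all genes. The comparison was added after the data were seen.

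The C2H2 zinc-finger genes lay on both sides of the locus, and all 10 (*ZNF574*, *ZNF526*, *ZNF575*, *ZNF576*, *ZNF428*, *ZNF283*, *ZNF404*, *ZNF45*, *ZNF221* and *ZNF155*) were tested. 0 of 10 were called. In labelled *ERF* KD 9 of 10 were above 0, with a median of 0.23, and in the codeletion 8 of 10 were below 0, with a median of -0.04. In labelled *ERF* KD *ZNF428* had the lowest unadjusted p of the 10. It had 27.4 and 26.1 CPM in WT, 42.9 and 32.3 in labelled *ERF* KD and 23.3 and 25.4 in the codeletion. Its libraries did not overlap WT in either line, at log2 fold changes of 0.49 (SE 0.175, edgeR adjusted p = 0.121) and -0.13 (SE 0.176). In the codeletion *ZNF221* was the farthest from 0, with 3.13 and 2.29 CPM in WT and 1.48 and 1.92 in the codeletion, a log2 fold change of -0.68 (SE 0.405, edgeR adjusted p = 0.506). *ZNF428* shares 498 exonic bases with *SRRM5* on the opposite strand.

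Of the ion transport genes *KCNN4*, a calcium-activated potassium channel, had 48.0 and 44.5 CPM in WT, 43.9 and 49.0 in labelled *ERF* KD, 39.8 and 37.5 in labelled *CIC* KO and 31.6 and 39.0 in the codeletion. The libraries of both groups labelled with *CIC* loss lay below WT, and the log2 fold change in the codeletion was -0.39 (SE 0.148, edgeR adjusted p = 0.322). *GRIK5*, a glutamate receptor subunit, had at most 0.338 CPM and was not tested.

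The 2 members that passed the test code for surface proteins of epithelia, and both were lower in labelled *ERF* KD. *CEACAM1*, an adhesion receptor of epithelial and immune cells 211.5 kb from the locus (42507304 to 42561234, minus strand), had 6.03 and 10.2 CPM in WT, 2.26 and 2.78 in labelled *ERF* KD, 12.7 and 9.96 in labelled *CIC* KO and 5.67 and 5.24 in the codeletion. Both labelled *ERF* KD libraries were below all of the others. *CEACAM1* fell by 1.68 on the log2 scale (SE 0.321, edgeR adjusted p = 0.014), to 2.52 ± 0.371 CPM from 8.11 ± 2.95 (SD, n = 2 each). It shares 185 exonic bases with *LIPE-AS1* on the opposite strand, and the call was lost without labelled *ERF* KD replicate A (-1.54, edgeR adjusted p = 0.0718) and without WT replicate B (-1.26, edgeR adjusted p = 0.0969).

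*LYPD3*, a GPI-anchored surface protein of the Ly6/uPAR family found in stratified epithelium, lies 1165 kb from the locus (43460787 to 43465660, minus strand). It had 33.0 and 34.4 CPM in WT, 13.3 and 19.1 in labelled *ERF* KD, 29.2 and 32.6 in labelled *CIC* KO and 19.5 and 21.9 in the codeletion. The labelled *ERF* KD and codeletion libraries were well below WT, and those labelled *CIC* KO just below. *LYPD3* fell by 1.06 on the log2 scale in labelled *ERF* KD (SE 0.194, edgeR adjusted p = 0.0121). In the codeletion its log2 fold change was -0.70 (SE 0.193, edgeR adjusted p = 0.195, or 0.0514 with the block). Without either of the WT libraries the call in labelled *ERF* KD was lost (edgeR adjusted p = 0.0578 without replicate A and 0.0722 without replicate B).

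Of the 7 Ly6/uPAR members 4 were tested (*PLAUR*, *LYPD3*, *LYPD5* and *PINLYP*), and all 4 were below 0 in labelled *ERF* KD and in the codeletion. *LYPD5* had 5.18 and 5.81 CPM in WT, 3.22 and 1.89 in labelled *ERF* KD, 7.44 and 4.91 in labelled *CIC* KO and 4.99 and 4.0 in the codeletion. Its libraries labelled *ERF* KD lay below all others, with a log2 fold change of -1.10 (SE 0.359, edgeR adjusted p = 0.0965, or 0.0345 with the block). *PLAUR*, the urokinase receptor, had 18.5 and 42.2 CPM in WT, 21.9 and 31.5 in labelled *ERF* KD, 26.2 and 40.7 in labelled *CIC* KO and 22 and 32.9 in the codeletion. Here replicate B was above replicate A in every group, by more than the groups differed from each other. *LYPD4*, *TEX101* and *CD177* had at most 0.204 CPM.

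*CNFN*, cornifelin of the cornified envelope of skin, lies 91.2 kb from *CIC* and was low. It had 1.23 and 1.58 CPM in WT, 0.72 and 0.298 in labelled *ERF* KD, 2.7 and 1.78 in labelled *CIC* KO and 2.2 and 1.86 in the codeletion. The log2 fold change in labelled *ERF* KD was -1.45 (SE 0.534, edgeR adjusted p = 0.135).

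The summed epithelial markers were lower and the summed mesenchymal markers, mostly *VIM*, higher in these same labelled *ERF* KD libraries, as given above. The part of these marker changes in the lower *CEACAM1*, *LYPD3* and *LYPD5* was not tested. In bulk RNA, fewer cells that express a gene and less of its RNA per cell cannot be told apart. The labelled *ERF* KD and labelled *CIC* KO libraries were also compared directly, a comparison added after the data were seen, in which 3 of 44 members (6.82%) were called, against 9.4% of all genes. They were *CEACAM1* (log2 difference, labelled *ERF* KD minus labelled *CIC* KO, -2.17, SE 0.323, edgeR adjusted p = 0.00479), *LYPD3* (-0.94, SE 0.194, edgeR adjusted p = 0.0202) and *CNFN* (-2.12, SE 0.53, edgeR adjusted p = 0.0428).

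**Figure D4:**
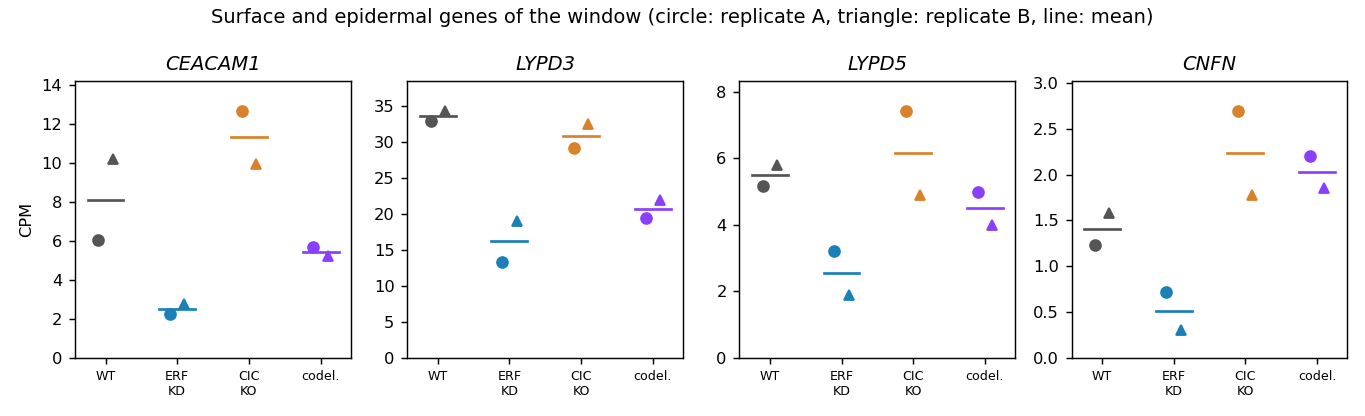
CPM (vertical axis, from 0) of *CEACAM1*, *LYPD3*, *LYPD5* and *CNFN* in the 4 groups, with replicate A as a circle, replicate B as a triangle and the mean of 2 libraries as a line. The labelled *ERF* KD libraries are the lowest for each gene, at 2.26 and 2.78 CPM for *CEACAM1* against 6.03 and 10.2 in WT.

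Most other *CEACAM* genes were silent. Of 8 members of the family 1 was tested, 4 had 0 counts in all 8 libraries (*CEACAM21*, *CEACAM4*, *CEACAM7* and *CEACAM3*) and *CEACAM5*, *CEACAM6* and *CEACAM8* had at most 0.451 CPM. The leukocyte genes of the window, *CD79A*, *CD177*, *CEACAM3* and *CEACAM8*, had at most 0.255 CPM, and of that list of 5 only *POU2F2* was tested.

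The *PSG* cluster differed with the replicate letter in every group. The 10 *PSG* genes, 425.8 to 916.0 kb from the locus on the *CIC* side, together had 15.4 and 6.22 CPM in WT replicates A and B, 28.6 and 8.69 in labelled *ERF* KD, 24.1 and 6.25 in labelled *CIC* KO and 70.0 and 8.01 in the codeletion. Replicate A was 2.47, 3.29, 3.85 and 8.74 times replicate B in these groups. All 4 B libraries were within 6.22 to 8.69 CPM, and codeletion replicate A was above each of the other 7 libraries.

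*PSG5* was the most abundant *PSG* gene in every library, at 12.3 ± 6.29 TPM in WT (SD, n = 2). It had 8.55 and 3.47 CPM in WT, 11.9 and 4.87 in labelled *ERF* KD, 13.9 and 3.61 in labelled *CIC* KO and 33.9 and 4.51 in the codeletion. Against WT the log2 fold change of *PSG5* in the codeletion was 1.68 (SE 0.955, edgeR adjusted p = 0.483), whereas replicate A exceeded replicate B over the 4 groups by 1.87 (SE 0.27, edgeR adjusted p = 0.0129). Over the 44 members, 7 (15.9%) differed between the letters, against 4.22% of all genes. Among them *PSG1*, *PSG3*, *PSG5*, *PSG8* and *PSG9* were higher in A and *PLAUR* was lower. Replicate A was above replicate B in all 4 groups for 6 of the 7 tested *PSG* genes and for 7 of the 37 other members (18.9%), against 15.2% of all genes tested. The comparison of letters was added after the data were seen, and neither the labels nor the methods say what a letter stands for.

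With the letter as a block, 2 *PSG* genes differed from WT in labelled *ERF* KD, in opposite directions. *PSG1* had 0.902 and 0.306 CPM in WT and 7.59 and 1.09 in labelled *ERF* KD, a log2 fold change of 2.82 (SE 1.32, edgeR adjusted p = 0.234, or 2.62 and 0.0084 with the block). *PSG8* had 3.09 and 1.22 CPM in WT and 0.961 and 0.0497 in labelled *ERF* KD, a log2 fold change of -2.07 (SE 1.32, edgeR adjusted p = 0.383, or -2.44 and 0.035 with the block). Part of their sequence is shared: 38.7% of the 31-base words of *PSG1* and 55.7% of those of *PSG8* also occur in other genes, and the assignment of reads could divide such reads between genes. The 7 tested *PSG* genes had medians of 1.46 in labelled *ERF* KD, 0.63 in labelled *CIC* KO and 2.02 in the codeletion, and 0 of 7 were called without the block. In the codeletion the median was 2.41 for the A library and -0.29 for the B library, each against the mean of both WT libraries. Against WT replicate B alone, the summed level of the 10 *PSG* genes in codeletion replicate B was not lower (8.01 against 6.22 CPM).

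Promoters of the family were also alike in part. *PSG5* (chr19:43186487-43186786, minus strand) and *PSG3* (chr19:42740432-42740731, minus strand) are shown because both moved with the letter. They were 75.3% identical when aligned, and *PSG3* and *PSG4* were 91.5% identical. Capitals in *PSG3* mark bases that differ from *PSG5*, are inserted, or lie past the end of the alignment.
PSG5: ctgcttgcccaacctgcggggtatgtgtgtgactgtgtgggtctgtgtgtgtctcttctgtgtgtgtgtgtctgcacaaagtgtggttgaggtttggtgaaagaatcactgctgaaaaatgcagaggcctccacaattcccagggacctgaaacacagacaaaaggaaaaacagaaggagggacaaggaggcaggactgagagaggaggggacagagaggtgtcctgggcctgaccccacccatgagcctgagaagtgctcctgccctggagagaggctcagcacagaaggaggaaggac
PSG3: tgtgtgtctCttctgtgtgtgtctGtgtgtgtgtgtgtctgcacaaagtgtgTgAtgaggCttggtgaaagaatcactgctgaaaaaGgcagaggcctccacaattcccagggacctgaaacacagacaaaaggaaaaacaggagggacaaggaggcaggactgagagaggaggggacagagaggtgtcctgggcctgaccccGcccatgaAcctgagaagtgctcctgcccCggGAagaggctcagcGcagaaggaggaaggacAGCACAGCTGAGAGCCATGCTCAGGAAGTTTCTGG

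**Figure D5:**
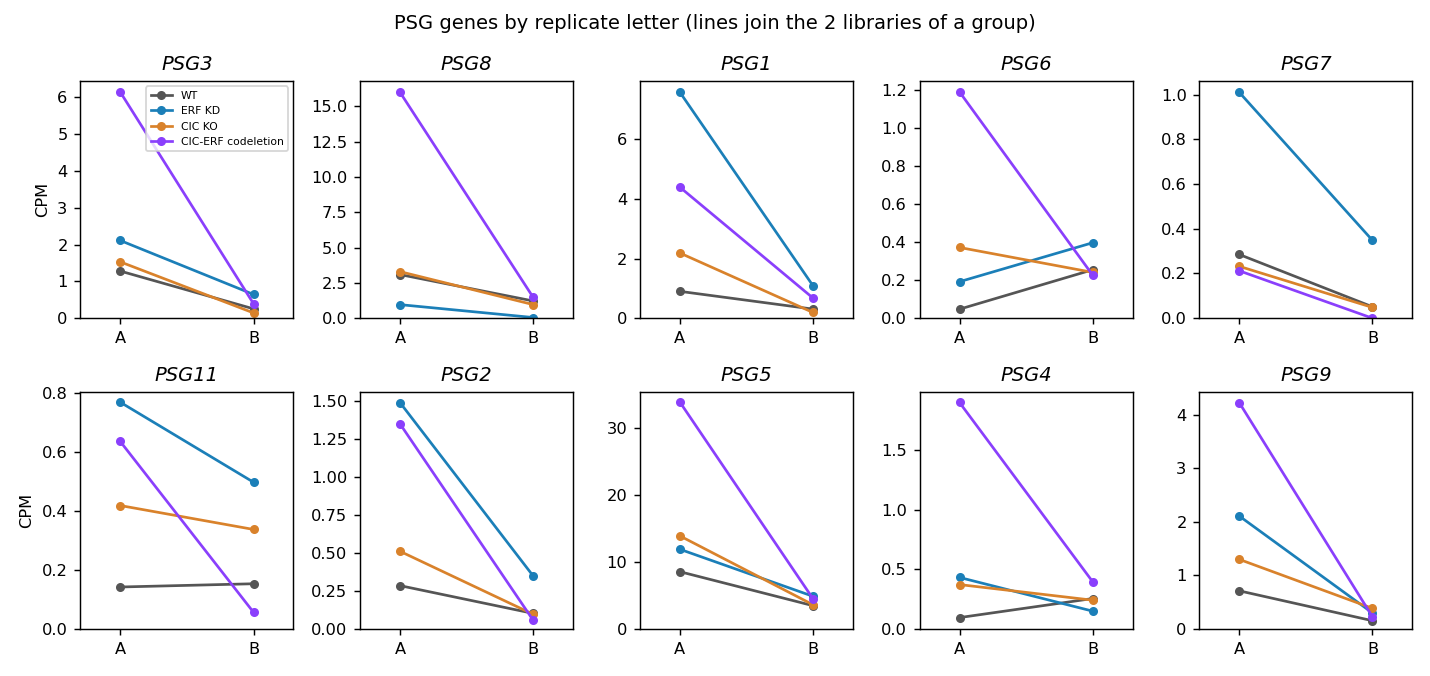
CPM (vertical axis, from 0, scaled for each gene) of the 10 *PSG* genes in replicates A and B, with a line joining the 2 libraries of each group. Most lines fall from A to B, and codeletion replicate A is the highest point for *PSG5*, at 33.9 CPM.

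Among members outside these families, the hormone-sensitive lipase gene *LIPE*, 105.7 kb from *CIC*, had 8.17 and 6.78 CPM in WT and 6.52 and 6.32 in the codeletion (log2 fold change -0.22, SE 0.28). *CADM4*, an adhesion molecule, had 67.7 and 53.0 CPM in WT, 91.2 and 42.9 in labelled *ERF* KD, 83.0 and 52.8 in labelled *CIC* KO and 70.1 and 62.3 in the codeletion, and was higher in replicate A of each group. *PHLDB3* had 20.8 and 21.7 CPM in WT and 20.8 to 25.4 over all 8 libraries. *AC006486.1*, the readthrough model over the locus, had 0 to 1.31 CPM, and since 95.7% of its 31-base words occur in other genes, its log2 fold changes (SE 2.0 to 2.24) carry little information. Of 66 members, 6 had 0 counts in all 8 libraries.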

How the data were processed

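The authors deposited, for each of the 8 libraries, estimated counts and TPM per transcript in the layout of kallisto output. The estimated counts are not normalized, and the deposited TPM values are relative to transcript length and library total. The submitters' processing notes name hg19. The kallisto version and transcript annotation are not given in the sources used here. Transcripts were matched by identifier to GENCODE release 29 (GRCh38), whose coordinates are used: 153245 of 180253 (85.0%) matched. Counts were summed per gene, rounded, scaled by TMM and tested over 14653 genes with edgeR 4.0.16 (quasi-likelihood, filterByExpr, 4 groups in 1 fit, R 4.3.3), with Benjamini-Hochberg adjustment over all genes and calls at an adjusted p under 0.05. The SE is the absolute log2 fold change over the square root of F. Members, role lists, motifs and alternatives were chosen with earlier results of these data known. Genes named were *ERF*, *CIC*, the 8 nearest tested members on each side, every member called in the unblocked or blocked fit, and the role lists, apart from items that are not reported here.

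Replicates differed by more than sampling noise (chi-square per degree of freedom 20.8 to 41.6, on genes with at least 10 counts). The A minus B differences correlated at 0.136 to 0.335 between groups, which meets the rule set for letters that pair the libraries (every pair over 0.1). The fit behind the printed SEs and adjusted p-values has no term for the letter, and the fit with the letter as a block is an alternative, given where it changes a call. The biological coefficient of variation was 0.197 without the block and 0.142 with it. The smallest p of an exact permutation test with 2 libraries on each side is 0.333, so none was run. The tests were checked on simulated data. At the lowest depth 3 counts are below 1 CPM. The alternatives included DESeq2 1.42.0 and limma 3.58.1, and the columns for transcript length were not reported.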

Additional observations from a re-analysis of the deposited data

Results flagged for a closer look

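Of the tested members, 3 differed between the libraries labelled *ERF* KD and those labelled *CIC* KO when their changes from WT were compared directly. The log2 difference, labelled *ERF* KD minus labelled *CIC* KO, was -2.17 for *CEACAM1* (SE 0.323, edgeR adjusted p = 0.00479), -2.12 for *CNFN* (SE 0.53, edgeR adjusted p = 0.0428) and -0.94 for *LYPD3* (SE 0.194, edgeR adjusted p = 0.0202). In each gene both labelled *ERF* KD libraries were below both labelled *CIC* KO libraries. *CNFN* rests on at most 2.7 CPM in any library. *ERF* mRNA is low under the *CIC* KO label and not under the *ERF* KD label, so that which loss belongs to which side of this difference rests on the labels.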

How the results depend on the processing

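With the replicate letter as a block, 6 members were called in labelled *ERF* KD (against 2), 0 in labelled *CIC* KO and 0 in the codeletion, and the medians were 0.12, 0.06 and -0.09. With no filter on low counts 59 members were tested. Of these 6, 0 and 7 were called in labelled *ERF* KD, labelled *CIC* KO and the codeletion, against 11.6%, 0.554% and 3.46% of all genes. Of the 7 in the codeletion 5 were *PSG* genes, and the median in labelled *CIC* KO was 0.12. With limma on TPM values, 1 member was called in labelled *ERF* KD at a pseudocount of 1 and 1 at 0.1, against 7.04% and 7.47% of all genes. Leaving out a replicate gave 0 to 2 called members there and 0 in both other lines. It gave medians of 0.06 to 0.19 in labelled *ERF* KD, 0.01 to 0.17 in labelled *CIC* KO and -0.25 to -0.07 in the codeletion. Without overlapping genes and the *CEACAM* and *PSG* families the medians were 0.09, 0.03 and -0.21, and without *PSG* alone -0.20 in the codeletion. Within the letters (added after seeing the data, as was the setting without *PSG* alone) they were 0.18, 0.13 and -0.06 in A and 0.09, -0.03 and -0.16 in B, so that the direction in labelled *CIC* KO was not kept. Length-scaled counts gave 0.11 in labelled *CIC* KO. The direction of the medians in labelled *ERF* KD and in the codeletion held in all settings run, and the causes of these moves were not tested. The 2 libraries per group and the low counts of *PSG* genes limit what a change within about 0.5 on the log2 scale can show.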
